A study of Mus musculus with 18 samples.

Results

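This account follows 10 mouse genes that remove or bypass damaged and misplaced bases in DNA: the alkyl-group remover Mgmt, the uracil and thymine glycosylases Ung, Smug1, Tdg and Mbd4, the damage sensors Xpc and Ddb2, the bypass polymerases Polk and Polh, and the ribonucleotide reductase subunit Rrm2b. They were chosen by name, and each matched exactly 1 of the 55414 genes in the deposited table. RNA-seq was done on 18 cultures of small intestinal epithelium from C57BL/6J wild-type mice, 3 biological replicates in each of 6 groups, all harvested on day 6. Crypt-derived organoids grew in Matrigel in ENR, a medium named for EGF, Noggin and R-spondin, either untreated (MG_Control) or with 40 µM 5-fluorouracil from day 4 (MG_5FU). Crypt-derived organoids also grew in collagen type I with ENRW medium, again untreated (COL_Control) or with the same 5-fluorouracil (5-FU) dose and timing (COL_5FU). Untreated crypt-derived organoids in collagen with 25% cWRNE medium formed another group (COL_cWRNE). The last (VIL) was untreated and grown in the same collagen and cWRNE medium, but from villi taken within 3 cm of the pylorus. ENR and ENRW differ, so matrix and medium change together between MG_Control and COL_Control and cannot be told apart.

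5-FU is a pyrimidine analogue that blocks thymidylate synthesis, so that uracil and fluorouracil are put into DNA in place of thymine. Glycosylases cut such bases out and start base excision repair, a route that ends with gap filling and ligation. Other lesions are found by Xpc and the DDB complex, which open nucleotide excision repair, are reversed directly by Mgmt, or are copied over by the translesion polymerases κ (Polk) and η (Polh). Crypts of the small intestine hold dividing stem and progenitor cells and are a known site of 5-FU toxicity. In human cells XPC, DDB2, POLH and RRM2B are known targets of the damage-activated factor p53.

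Library totals ran from 22.3 to 34.5 M estimated counts (M, 1000000), and all 10 genes passed the low-count filter in every comparison. Counts ranged from 16 to 357 for Ung and from 2975 to 6904 for Tdg. By median count, Ung (113), Rrm2b (148), Polh (196) and Mbd4 (280) were lowest and carry more counting error. Mgmt was also low in MG_Control, at 78 to 101 counts, below Ung (160 to 357) and Mbd4 (285 to 543) there. Epithelial markers were present in every group (7 of 7 genes at 1 TPM or more; TPM is a level corrected for transcript length), with sums of 6460 to 26200 TPM. The summed level of 7 mesenchymal markers was 0.615 to 7.29 TPM in the other 5 groups but 22.2, 295 and 273 TPM in VIL replicates 1, 2 and 3. The sum of 5 immune markers was 971, 2770 and 4630 TPM in those 3 libraries. It also differed with 5-FU in each matrix, between the untreated matrices and with cWRNE, with no overlap within any of these contrasts. In Matrigel it was 3.92 to 7.42 TPM in MG_Control and 14.8 to 20.0 in MG_5FU. In collagen it was 13.0 to 22.5 in COL_Control, 24.2 to 42.6 in COL_5FU and 63.9 to 75.4 in COL_cWRNE. Ptprc, the pan-leukocyte marker, was at 0 in every COL_Control, COL_5FU and COL_cWRNE library, and the T cell gene Cd3e in every MG_5FU and COL_Control library. The immune markers did not move as a set with 5-FU. Cd68 rose in both matrices (log2 fold change 2.46 in Matrigel and 1.30 in collagen). Lyz2 rose in Matrigel (1.82) but fell in collagen (−0.94, edgeR adjusted p = 0.0346). Only 2 of the 5 immune genes reached 1 TPM in MG_Control, MG_5FU, COL_Control or COL_5FU. The mesenchymal sum was 2.88 to 4.25 TPM in MG_Control and 4.51 to 7.29 in MG_5FU. It overlapped between COL_Control (0.862 to 3.53) and COL_5FU (0.615 to 1.9). The part of the immune and mesenchymal marker RNA in the differences with 5-FU, matrix and cWRNE was not tested. Replicate 2 of each group carried Y-linked counts with at most 15 Xist counts, and COL_Control replicate 3 alone had both, 738 Y-linked counts beside 4893 Xist counts. Where leaving out one of these libraries changes a call of the 10 genes, this is stated with the result, in places as a range of adjusted p.

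The upstream sequences of 4 of the genes are shown because Mgmt and Polk rose together with 5-FU, Ung fell in both matrices, and Polh fell in collagen. The RefSeq promoter table (GRCm38.p6) held 7 of the 10 genes, leaving Xpc, Ddb2 and Rrm2b without a sequence here. Each run is the 250 bases before a transcript start, written 5′ to 3′ on the strand of the gene. Capitals mark matches, on either strand, to the GC box GGGCGG, the palindromic NRF1 motif, the E2F-type motifs TTCCCGC and TTGGCGC, or the p53 decamer, and no marked matches overlap. Mgmt lies at chr7:136894336-136894585 (plus strand), Polk at chr13:96542580-96542829 (minus), Ung at chr5:114130185-114130434 (plus) and Polh at chr17:46202642-46202891 (minus).
Mgmt: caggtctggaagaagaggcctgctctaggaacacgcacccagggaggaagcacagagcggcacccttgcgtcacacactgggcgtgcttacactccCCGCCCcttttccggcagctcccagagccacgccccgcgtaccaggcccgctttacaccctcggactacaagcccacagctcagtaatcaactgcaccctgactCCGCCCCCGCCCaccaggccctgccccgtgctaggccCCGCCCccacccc
Polk: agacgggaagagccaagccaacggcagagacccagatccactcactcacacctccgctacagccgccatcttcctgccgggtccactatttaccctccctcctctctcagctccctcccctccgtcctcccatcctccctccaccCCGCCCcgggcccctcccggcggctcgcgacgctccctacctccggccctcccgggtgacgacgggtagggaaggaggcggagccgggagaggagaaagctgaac
Ung: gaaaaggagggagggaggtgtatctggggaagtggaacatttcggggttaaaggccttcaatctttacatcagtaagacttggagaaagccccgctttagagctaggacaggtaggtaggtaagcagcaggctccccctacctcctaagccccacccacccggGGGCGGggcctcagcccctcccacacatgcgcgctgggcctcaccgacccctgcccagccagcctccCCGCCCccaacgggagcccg
Polh: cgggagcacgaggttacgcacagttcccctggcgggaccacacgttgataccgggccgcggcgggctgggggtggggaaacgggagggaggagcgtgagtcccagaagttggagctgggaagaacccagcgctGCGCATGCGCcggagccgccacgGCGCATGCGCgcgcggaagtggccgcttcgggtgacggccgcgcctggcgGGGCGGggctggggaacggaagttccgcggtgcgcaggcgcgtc

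The Mgmt run held 4 GC boxes, Ung 2, and Polk and Polh 1 each, and 32.7% of the 32851 promoters in the table hold at least 1. Polh also held 2 copies of the NRF1 motif, the longer capital runs in its sequence, which 0.782% of all promoters contain. None of these 4 runs matched TTCCCGC or TTGGCGC or the p53 decamer, which occur in 3.82%, 1.97% and 7.13% of promoters. The table lists a second start for Mgmt and for Polk, and the second Polk window (chr13:96519188-96519437) held 1 p53 decamer. CpG dinucleotides numbered 15 in the Mgmt run, 19 in Polk, 10 in Ung and 35 in Polh, against a median of 6 over all promoters. These matches are descriptions of letters, not of bound sites.

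Per transcript length, Tdg was the most abundant of the 10, with a median of 96.9 TPM over the 18 libraries (57.7 to 132). Smug1 followed at 22.2 TPM, then Polk at 12.2, Xpc at 10.7, Mgmt at 9.88 and Ddb2 at 9.64 TPM. The lowest were Mbd4 at 4.0, Polh at 3.0, and Ung and Rrm2b at 2.24 TPM each. The highest library stood furthest above the lowest, as a ratio, for Mgmt (1.19 to 22 TPM), Polk (2.21 to 32.3 TPM) and Ung (0.5 to 6.98 TPM). Later levels are counts per M (CPM) scaled with TMM, edgeR's correction for library composition, and compare libraries within a gene only.

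**Figure D1:**
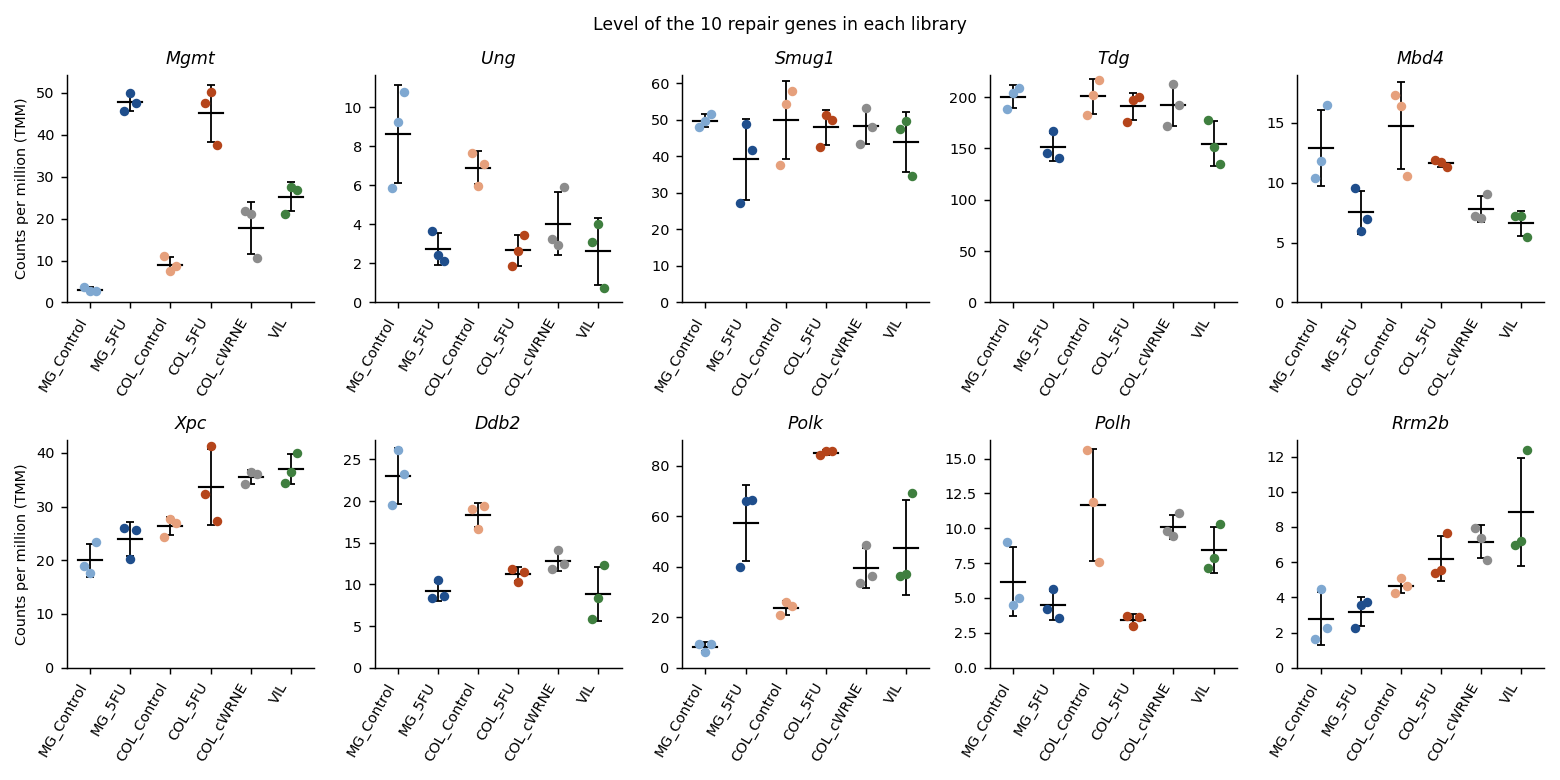
Level of each of the 10 genes in CPM (vertical axes, linear from 0) in the 6 groups; points are single libraries and bars the group means. Mgmt and Polk are lowest in MG_Control (means 3.03 and 8.34) and highest with 5-FU, while Smug1 ranges overlap between neighbouring groups throughout.

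The addition of 5-FU raised Mgmt and Polk in both matrices and lowered Ung and Ddb2 in both. In Matrigel, 2 of the 10 genes were higher and 4 lower with 5-FU, while 30.9% of all 16611 genes tested were called (19.2% higher, 11.7% lower). In collagen, 2 were higher and 3 lower, against 35.3% of all genes called (18.6% higher, 16.7% lower). A call is an adjusted p under 0.05 in edgeR's quasi-likelihood test. Xpc, Smug1 and Rrm2b were called in neither matrix. In these bulk samples, fewer cells of a type and less RNA per cell cannot be told apart.

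Mgmt takes methyl groups off the O6 position of guanine in a single step that uses up the protein. In MG_Control its level was 3.7, 2.79 and 2.61 CPM, and in MG_5FU it was 45.8, 50.0 and 47.5 CPM. In COL_Control it was 11.0, 7.55 and 8.59 CPM, and in COL_5FU 47.7, 50.3 and 37.5 CPM. Every treated library stood far above every untreated one in both matrices. The rise was 16.4-fold in Matrigel (log2 fold change 4.04 ± 0.18 SE, edgeR adjusted p = 1.36e-08) and 4.88-fold in collagen (2.29 ± 0.17, adjusted p = 7.33e-07). Of the 10 genes Mgmt had the largest log2 fold change in either matrix. The other direct-reversal genes were a dioxygenase pair, Alkbh2 and Alkbh3. Alkbh2 was called in neither matrix (0.34 ± 0.21 in Matrigel, −0.29 ± 0.21 in collagen), and Alkbh3 fell in collagen (−0.55 ± 0.15, adjusted p = 0.0116) with a Matrigel value of −0.29 ± 0.15 (adjusted p = 0.176).

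Ung, the main glycosylase for uracil in DNA, moved the other way. Its level was 5.86, 9.26 and 10.8 CPM in MG_Control and 3.67, 2.42 and 2.12 CPM in MG_5FU. In collagen it was 7.65, 5.99 and 7.1 CPM untreated and 1.88, 2.63 and 3.48 CPM treated. No treated library reached the lowest untreated one in either matrix. Ung fell by 1.61 ± 0.32 on the log2 scale in Matrigel (3.06-fold lower, edgeR adjusted p = 0.00167) and by 1.40 ± 0.32 in collagen (2.64-fold lower, adjusted p = 0.00386). The proliferation marker Mki67 moved with it, from a mean of 156 to 56.7 CPM in Matrigel and from 157 to 58.2 CPM in collagen, and its part in the Ung result was not tested.

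Smug1, a second uracil glycosylase that also acts on 5-hydroxymethyluracil and on fluorouracil, showed no call. It measured 47.9, 49.7 and 51.6 CPM in MG_Control and 27.1, 48.7 and 41.6 CPM in MG_5FU, so 1 treated library overlapped the untreated range. In collagen the untreated values (37.7, 54.4 and 57.7 CPM) enclosed the treated ones (42.5, 51.2 and 50.0 CPM). The log2 difference was −0.29 in Matrigel (95% interval −0.68 to 0.10) and −0.09 in collagen (−0.48 to 0.30).

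Tdg and Mbd4 remove thymine or uracil paired with guanine, mainly at CpG sites. Tdg was 188, 204 and 209 CPM in MG_Control and 146, 167 and 141 CPM in MG_5FU, with no overlap. In collagen it was 183, 202 and 217 CPM untreated and 176, 197 and 200 CPM treated, with overlap. Tdg fell in Matrigel by 0.35 ± 0.10 (edgeR adjusted p = 0.0205), the smallest called difference of the 10 genes, and the value in collagen was −0.10 ± 0.10 (adjusted p = 0.488). Mbd4 was 10.4, 11.8 and 16.5 CPM in MG_Control against 9.55, 6.01 and 7.01 CPM in MG_5FU, again without overlap. Its levels in collagen were 17.3, 16.4 and 10.6 CPM untreated and 11.9, 11.7 and 11.3 CPM treated, which overlap. Mbd4 fell in Matrigel by 0.73 ± 0.24 (adjusted p = 0.0355), while the collagen value was −0.38 ± 0.24 (adjusted p = 0.249). Both Matrigel calls ended when single libraries were left out: Tdg without MG_5FU replicate 1 or 3 or MG_Control replicate 2 or 3 (adjusted p 0.0585 to 0.0875), and Mbd4 without replicate 2 or 3 of either group (adjusted p 0.0549 to 0.162).

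The damage sensors behaved unlike each other. Ddb2, the subunit of the DDB complex that binds damaged DNA, was 19.5, 26.2 and 23.2 CPM in MG_Control and 8.38, 10.5 and 8.58 CPM in MG_5FU. In COL_Control it was 19.0, 16.7 and 19.4 CPM and in COL_5FU 11.9, 10.3 and 11.5 CPM. Treated and untreated libraries did not overlap in either matrix. Ddb2 fell by 1.28 ± 0.17 in Matrigel (2.42-fold lower, edgeR adjusted p = 6.03e-05) and by 0.74 ± 0.16 in collagen (1.67-fold lower, adjusted p = 0.00325). Acp2, a lysosomal phosphatase gene that overlaps Ddb2 on the opposite strand in the GENCODE M21 annotation, rose in the same comparisons (0.72 ± 0.09, adjusted p = 6.75e-05, and 0.40 ± 0.09, adjusted p = 0.00475). Whether the counting used strand is not given in the sources used here, so reads of Ddb2 and Acp2 cannot be told apart with certainty.

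Xpc, which recognises distorted DNA across the genome, ranged from 17.6 to 23.4 CPM in MG_Control and from 20.3 to 26.0 CPM in MG_5FU. In collagen it ranged from 24.4 to 27.7 CPM untreated and from 27.3 to 41.2 CPM treated. The ranges overlapped in both matrices, and the log2 differences of 0.31 (95% interval −0.02 to 0.65, edgeR adjusted p = 0.184) and 0.32 (−0.01 to 0.65, adjusted p = 0.161) were not called.

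The bypass polymerases also parted. Polk, the polymerase κ gene, inserts bases opposite bulky adducts of guanine. It measured 9.52, 6.22 and 9.27 CPM in MG_Control and 40.0, 65.8 and 66.4 CPM in MG_5FU. In COL_Control it was 20.7, 25.9 and 24.3 CPM, and in COL_5FU 84.0, 85.6 and 85.9 CPM. Treated libraries lay above all untreated ones within each matrix, and the COL_5FU values were the highest of all 18 libraries. The rise was 7.15-fold in Matrigel (2.84 ± 0.21, edgeR adjusted p = 4.53e-07) and 3.52-fold in collagen (1.82 ± 0.19, adjusted p = 1.52e-05).

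Polh, the polymerase η gene, copies past ultraviolet-induced pyrimidine dimers. It was 9.01, 4.47 and 5.01 CPM in MG_Control and 4.22, 5.63 and 3.6 CPM in MG_5FU, with overlap. In COL_Control it was 15.6, 11.9 and 7.57 CPM and in COL_5FU 3.7, 2.98 and 3.62 CPM, with every treated library below every untreated one. The fall in collagen was 1.80 ± 0.32 (3.47-fold lower, edgeR adjusted p = 0.000728), and the Matrigel value was −0.39 ± 0.31 (adjusted p = 0.385).

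Rrm2b encodes a small ribonucleotide reductase subunit that supplies deoxynucleotides for repair outside S phase. It was 1.65, 4.47 and 2.25 CPM in MG_Control and 2.25, 3.59 and 3.74 CPM in MG_5FU. In COL_Control it was 4.24, 5.08 and 4.64 CPM and in COL_5FU 5.4, 5.54 and 7.68 CPM. The Matrigel groups overlapped, whereas the collagen groups did not. Neither log2 difference was called (0.24 ± 0.36 in Matrigel, edgeR adjusted p = 0.659; 0.39 ± 0.35 in collagen, adjusted p = 0.424), with upper interval bounds of 0.95 and 1.07. A processed pseudogene, Gm3362 (13 to 259 counts), overlaps Rrm2b on the same strand in GENCODE M21, so reads of the pair may be shared. The S phase paralog Rrm2 was called in neither matrix (−0.11 ± 0.14 and 0.25 ± 0.14).

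**Figure D2:**
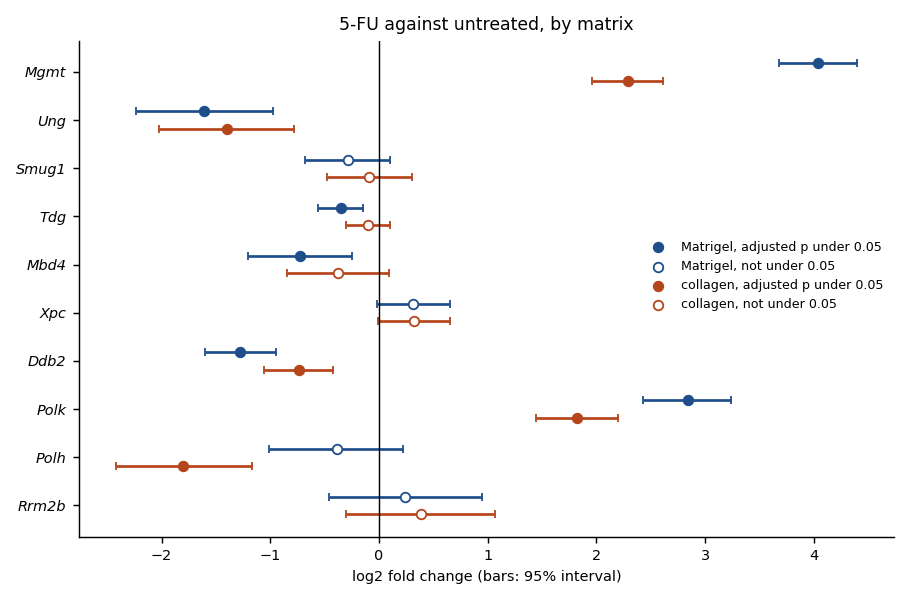
log2 fold change of each gene with 5-FU in Matrigel and in collagen (horizontal axis), with 95% intervals as bars; filled points have an adjusted p under 0.05. Mgmt (4.04 and 2.29) and Polk (2.84 and 1.82) lie to the right in both matrices, and the Polh point is filled for collagen only.

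A test of the 5-FU difference in collagen minus that in Matrigel gave 2 called genes of the 10, Mgmt and Polk, both lower in collagen. Over all genes 8.19% were called in this test (1.88% higher, 6.3% lower). For Mgmt the difference of differences was −1.75 ± 0.23 (edgeR adjusted p = 0.000514), and −1.78 without COL_Control replicate 3 (adjusted p = 0.00148). Its treated levels overlapped between matrices (45.8 to 50.0 CPM in Matrigel, 37.5 to 50.3 CPM in collagen), whereas its untreated levels did not (2.61 to 3.7 CPM against 7.55 to 11.0 CPM). For Polk the value was −1.02 ± 0.27 (adjusted p = 0.0356), and its collagen levels were above its Matrigel levels without overlap both untreated and treated. That call ended on log2(TPM + 1) values (−0.59, adjusted p = 0.302), with all 18 libraries in one fit (−0.93, adjusted p = 0.182), and without any one of COL_5FU replicates 1, 2 or 3, COL_Control replicates 2 or 3, MG_5FU replicates 2 or 3, or MG_Control replicate 2 (adjusted p 0.0606 to 0.101).

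Polh had a difference of −1.40 ± 0.44 (edgeR adjusted p = 0.0708), so its fall in collagen and its uncalled value in Matrigel were not shown to differ by this test. It was called by DESeq2 (−1.35, adjusted p = 0.0307), without COL_Control replicate 3 (−1.63, adjusted p = 0.0422) and without MG_Control replicate 1 (−1.75, adjusted p = 0.0277), and with the replicate number as a block its adjusted p was just under the threshold (−1.39, adjusted p = 0.05 after rounding). For Ddb2 the value was 0.54 ± 0.23 (adjusted p = 0.191). The remaining 6 genes had adjusted p-values of 0.361 or more. Without COL_Control replicate 3 the 5 calls for 5-FU in collagen held, at 2.26 for Mgmt, 1.84 for Polk, −2.03 for Polh, −1.38 for Ung and −0.70 for Ddb2 (adjusted p 1.26e-05 to 0.0158).

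Untreated cultures in collagen with ENRW had more Mgmt, Polk and Polh than untreated cultures in Matrigel with ENR. These 3 genes were called higher and none lower, while 31.2% of all genes were called (15.8% higher, 15.4% lower). Mgmt was 2.97-fold higher (1.57 ± 0.18, edgeR adjusted p = 1.9e-05) and Polk 2.82-fold higher (1.5 ± 0.20, adjusted p = 8.93e-05), each without overlap of the library values given above. Polh was 1.90-fold higher (0.93 ± 0.31, adjusted p = 0.0367) with overlapping libraries, and its call ended without COL_Control replicate 1 or 2 or MG_Control replicate 2 or 3 (adjusted p 0.0849 to 0.163). This comparison shares its MG_Control libraries with that of 5-FU in Matrigel. Without COL_Control replicate 3, Mgmt was at 1.60, Polk at 1.47 and Polh at 1.16, and all 3 calls held.

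The other 7 genes were not called between these matrices. Xpc was at 0.39 ± 0.17 (edgeR adjusted p = 0.0989), and was called under library totals (0.47, adjusted p = 0.0392), on log2(TPM + 1) values (0.54, adjusted p = 0.0374) and without MG_Control replicate 3 (0.54, adjusted p = 0.0364). Rrm2b was at 0.73 ± 0.36 (adjusted p = 0.145), and at 1.25 without MG_Control replicate 2 (adjusted p = 0.0182). Tdg (95% interval −0.21 to 0.20) and Smug1 (−0.39 to 0.38) had differences that rounded to 0.

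Replacing ENRW by cWRNE medium in collagen went with more Mgmt and less Mbd4. These were the only 2 genes called with group as the only term. Of all genes, 18% were called in that comparison (13.1% higher, 4.85% lower). Mgmt measured 21.9, 21.0 and 10.7 CPM in COL_cWRNE against 7.55 to 11.0 CPM in COL_Control, so replicate 3 overlapped the untreated ENRW range. The difference was 0.98 ± 0.23 (1.98-fold, edgeR adjusted p = 0.00782), and 0.78 without COL_cWRNE replicate 1 (adjusted p = 0.0501). Mbd4 was 7.2, 7.09 and 9.04 CPM in COL_cWRNE, below all 3 COL_Control libraries (−0.93 ± 0.24, adjusted p = 0.0133). Its call ended without COL_cWRNE replicate 1 or 2 or COL_Control replicate 1 or 2 (adjusted p 0.0523 to 0.0589). Without COL_Control replicate 3 both calls held, at 0.93 for Mgmt (adjusted p = 0.039) and −1.14 for Mbd4 (adjusted p = 0.00829). Polk, at 33.4, 48.5 and 36.4 CPM in COL_cWRNE and 20.7 to 25.9 CPM in COL_Control, did not overlap. It missed the threshold in the main fit (0.74 ± 0.25, edgeR adjusted p = 0.0503). It was called with the replicate block (0.74, adjusted p = 0.04), by DESeq2 (0.71, adjusted p = 0.0405) and without the filter (0.76, adjusted p = 0.0155). Ddb2 was called lower under library totals only (−0.69, adjusted p = 0.036).

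Between villus-derived and crypt-derived cultures in the same collagen and cWRNE medium, no difference was called in the 10 genes. Neither edgeR nor DESeq2 called one in either direction, and 0 had an unadjusted p under 0.05 in edgeR, while 7.64% of all genes were called (5.68% higher, 1.96% lower). VIL and COL_cWRNE libraries overlapped for each of the 10, and the share of all genes that overlap in this way was not counted. Mgmt was 21.2, 27.6 and 26.9 CPM in VIL (0.50, 95% interval −0.06 to 1.06), and Polk was 36.4, 36.9 and 69.2 CPM (0.27, −0.28 to 0.82). Ung, at 3.11, 4.04 and 0.725 CPM in VIL, had the widest interval (−0.60, −1.70 to 0.50). Ddb2 was 5.83, 8.31 and 12.3 CPM in VIL and 11.8, 14.1 and 12.4 CPM in COL_cWRNE (−0.54 ± 0.27, adjusted p = 0.273). With VIL replicate 1, the villus-derived library with the least mesenchymal and immune marker RNA, as the only one, Ddb2 was at −1.11 (adjusted p = 0.0404), Mgmt at 0.27 and Polk at −0.09. That fit assumes that the lone library varies like the other groups, and that library still held 971 TPM of immune markers.

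Against crypt-derived organoids in Matrigel, the villus-derived cultures had more Mgmt, Polk, Rrm2b and Xpc and less Ung, Ddb2, Mbd4 and Tdg. These 4 higher and 4 lower genes stand beside 46.6% of all genes called (27% higher, 19.7% lower). Mgmt was 8.09-fold higher (3.02 ± 0.31, edgeR adjusted p = 0.000122) and Polk 5.51-fold higher (2.46 ± 0.30, adjusted p = 0.000277), without overlap. Rrm2b, at 6.95, 7.23 and 12.4 CPM in VIL, was 3.08-fold higher (1.62 ± 0.41, adjusted p = 0.0101). Xpc, at 34.4, 36.5 and 39.9 CPM, was 1.79-fold higher (0.84 ± 0.15, adjusted p = 0.00195). Neither gene overlapped its MG_Control range.

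Ddb2 was 2.69-fold lower in VIL than in MG_Control (−1.43 ± 0.27, edgeR adjusted p = 0.00258), and Mbd4 2.01-fold lower (−1.0 ± 0.26, adjusted p = 0.0114). Ung (−1.75 ± 0.57, adjusted p = 0.0307) and Tdg (−0.41 ± 0.14, adjusted p = 0.0369) were the least firm of the 8. Leaving out single libraries, Tdg was not called without VIL replicate 2 (−0.39, adjusted p = 0.101) or 3 (−0.31, adjusted p = 0.0839). Nor was it called without any single MG_Control library (adjusted p 0.0777 to 0.152), without the filter (−0.36, adjusted p = 0.123) or on log2(TPM + 1) values (−0.30, adjusted p = 0.116). Ung was not called without MG_Control replicate 2 (−1.66, adjusted p = 0.0845) or 3 (−1.50, adjusted p = 0.0967), and Mbd4 without MG_Control replicate 3 (adjusted p = 0.0594). Polh, not among the 8, was called higher without MG_Control replicate 1 (0.83, adjusted p = 0.0443). With VIL replicate 1 alone, its spread again taken from the other groups, the values were 2.79 for Mgmt, 2.11 for Polk, 0.77 for Xpc and −1.99 for Ddb2, all called. They were 1.30 for Rrm2b (adjusted p = 0.0806), −0.86 for Mbd4 (adjusted p = 0.111), −1.50 for Ung (adjusted p = 0.0712) and −0.19 for Tdg (adjusted p = 0.43). The part of the mesenchymal and immune marker RNA in these differences was not tested. The comparison shares its MG_Control libraries with those above.

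**Figure D3:**
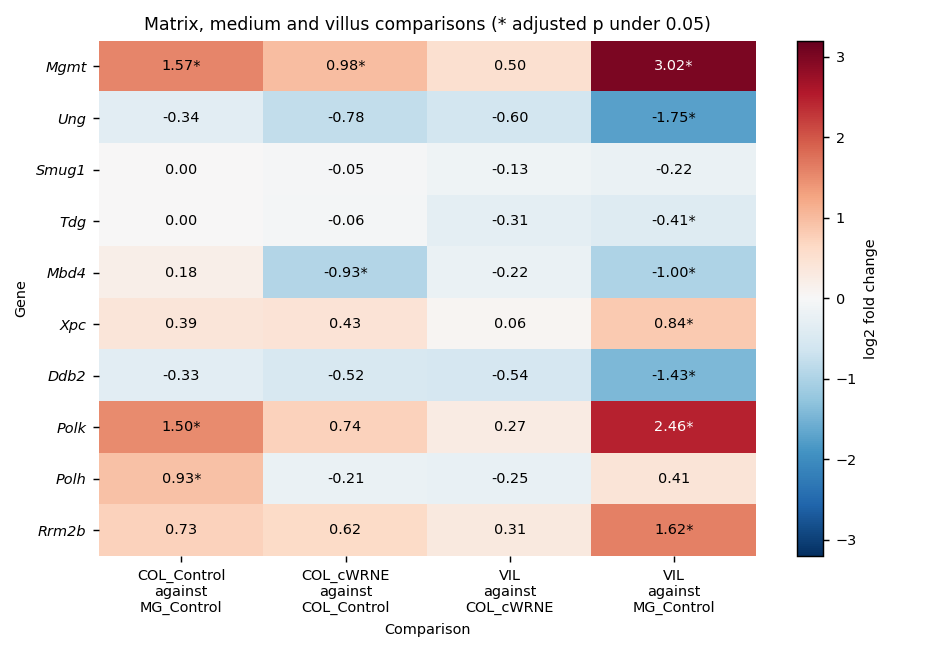
log2 fold change (colour) of each gene (rows) in the matrix, medium and villus comparisons (columns); asterisks mark an adjusted p under 0.05. The column for VIL against COL_cWRNE carries no asterisk, while the column for VIL against MG_Control carries 8.

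Ordering the groups by mean placed Mgmt at 3.03 CPM in MG_Control, 9.03 in COL_Control, 17.9 in COL_cWRNE, 25.3 in VIL, 45.2 in COL_5FU and 47.8 in MG_5FU. Neighbours in that order overlapped except MG_Control with COL_Control and VIL with COL_5FU. Polk followed the order 8.34, 23.7, 39.4, 47.5, 57.4 and 85.2 CPM for MG_Control, COL_Control, COL_cWRNE, VIL, MG_5FU and COL_5FU, and overlapped between COL_cWRNE and VIL and between VIL and MG_5FU. Ung ran nearly opposite, from 2.63 CPM in VIL to 8.66 in MG_Control, with the only gap between COL_cWRNE (4.03) and COL_Control (6.91). Ddb2 ranged from 8.80 CPM in VIL to 23.0 in MG_Control. It had gaps between COL_cWRNE (12.8) and COL_Control (18.4) and between COL_Control and MG_Control. The highest COL_Control library (19.4 CPM) lay just below the lowest MG_Control library (19.5 CPM). Neither Ddb2 difference, nor that at the Ung gap, was called in the main fits of the comparisons above. How many of all genes show such gaps was not counted.

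Among the remaining genes, all neighbours in order overlapped for Smug1 (means 39.1 to 49.9 CPM), Tdg (151 to 201 CPM), Xpc (20.0 to 36.9 CPM) and Polh (3.43 to 11.7 CPM). Mbd4 had a single gap, between COL_cWRNE (7.77 CPM) and COL_5FU (11.6 CPM). The mean of Rrm2b ran from 2.79 CPM in MG_Control to 8.85 CPM in VIL, with gaps on either side of COL_Control (4.65 CPM).

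The pathways around the 10 genes were read from fixed lists, whose members are other genes. Over all genes tested, 19.2% were called higher and 11.7% lower with 5-FU in Matrigel, and 18.6% higher and 16.7% lower in collagen. Of 18 further base excision genes, 4 were higher and 5 lower with 5-FU in Matrigel (median log2 fold change −0.11, against 0.06 over all genes) and 3 higher and 8 lower in collagen (−0.41 against −0.03). The 8 became 5 without COL_5FU replicate 1 or without COL_Control replicate 3, and the 4 higher in Matrigel became 0 on log2(TPM + 1). Lig1, the ligase that seals long repair patches and Okazaki fragments, fell in both (−1.67 ± 0.14 and −1.52 ± 0.14, edgeR adjusted p 1.49e-06 and 4.03e-06). The abasic-site endonuclease Apex1 (−0.88 ± 0.10 and −0.46 ± 0.10), the flap endonuclease Fen1 (−1.12 ± 0.13 and −0.39 ± 0.13) and the glycosylase Neil3 (−1.86 ± 0.25 and −1.85 ± 0.25) also fell in both. The scaffold Xrcc1 rose in collagen (0.50 ± 0.10), with a Matrigel value of 0.19 ± 0.10 (adjusted p = 0.164).

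Nucleotide excision, with Xpc and Ddb2 set aside, had 4 genes higher and 0 lower of 16 in Matrigel (median 0.08) and 4 higher and 1 lower in collagen (0.02). The Matrigel count was 2 higher without MG_5FU replicate 1 or 2, 2 higher and 3 lower under library totals, and 2 higher and 5 lower on log2(TPM + 1). Ercc5, the 3′ endonuclease of the pathway, rose from a mean of 16.3 to 88.9 CPM in Matrigel (2.50 ± 0.12) and from 31.3 to 133 CPM in collagen (2.05 ± 0.12). Ercc1, part of the 5′ endonuclease, rose by 0.56 ± 0.17 and 1.08 ± 0.17. The TFIIH subunit Gtf2h1 rose by 0.76 ± 0.10 and 0.48 ± 0.10. Uvssa, which acts in transcription-coupled repair, fell in collagen (−1.50 ± 0.25), with a Matrigel value of 0.17 ± 0.24 (adjusted p = 0.654).

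The lesion bypass list, without Polk and Polh, gave 2 higher and 5 lower of 11 in Matrigel (median −0.42). In collagen it gave 2 higher and 2 lower (−0.21). The list also holds Pold1 and Pole, which are replicative polymerase genes. The 5 became 3 without MG_Control replicate 3. The collagen counts were 4 higher and 3 lower without COL_5FU replicate 3, 1 and 1 without COL_5FU replicate 1, and 1 and 2 without COL_5FU replicate 2 or COL_Control replicate 2. Rev1, the scaffold polymerase of translesion synthesis, rose in both matrices like Polk (1.63 ± 0.20 and 1.10 ± 0.20, edgeR adjusted p 4.36e-05 and 0.000833). The replicative polymerase gene Pole (−1.83 ± 0.27 and −0.92 ± 0.26) and Rad18, a ubiquitin ligase that recruits bypass polymerases (−0.72 ± 0.15 and −0.78 ± 0.15), fell in both. Pold1 fell in Matrigel (−1.16 ± 0.14), with a collagen value of −0.28 ± 0.13 (adjusted p = 0.119).

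Mismatch repair had 0 higher and 4 lower of 8 in each matrix (medians −0.67 and −0.43), and 7 lower in Matrigel under library totals. Exo1 fell in both (−0.72 ± 0.17 and −0.50 ± 0.17), and Pms1 fell in collagen (−1.02 ± 0.24), with a Matrigel value of −0.51 ± 0.24 (adjusted p = 0.127). The list for deoxynucleotide supply and cleansing, which adjoins Rrm2b, had 0 higher and 5 lower of 9 in Matrigel (median −0.51) and 0 higher and 4 lower in collagen (−0.09). Thymidine kinase Tk1 (−2.15 ± 0.14 and −1.03 ± 0.14), the large reductase subunit Rrm1 (−1.36 ± 0.13 and −0.76 ± 0.12) and the dUTP-hydrolysing Dut (−1.02 ± 0.11 and −0.62 ± 0.11) fell in both.

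The p53 target list, with none of the 10 genes in it, was higher in 10 of 10 genes in each matrix (medians 3.26 and 2.26), with Mdm2 at 2.96 ± 0.13 and 3.05 ± 0.13. The S phase list was lower in 10 of 10 in Matrigel (median −1.07) and in 5 of 10 in collagen (−0.38), where it was 8 without COL_5FU replicate 3 and 3 with all 18 libraries in one fit. The 10 repair genes themselves had medians of −0.32 and −0.10. These lists were chosen with earlier results of these data known, so their directions are descriptions.

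**Figure D4:**
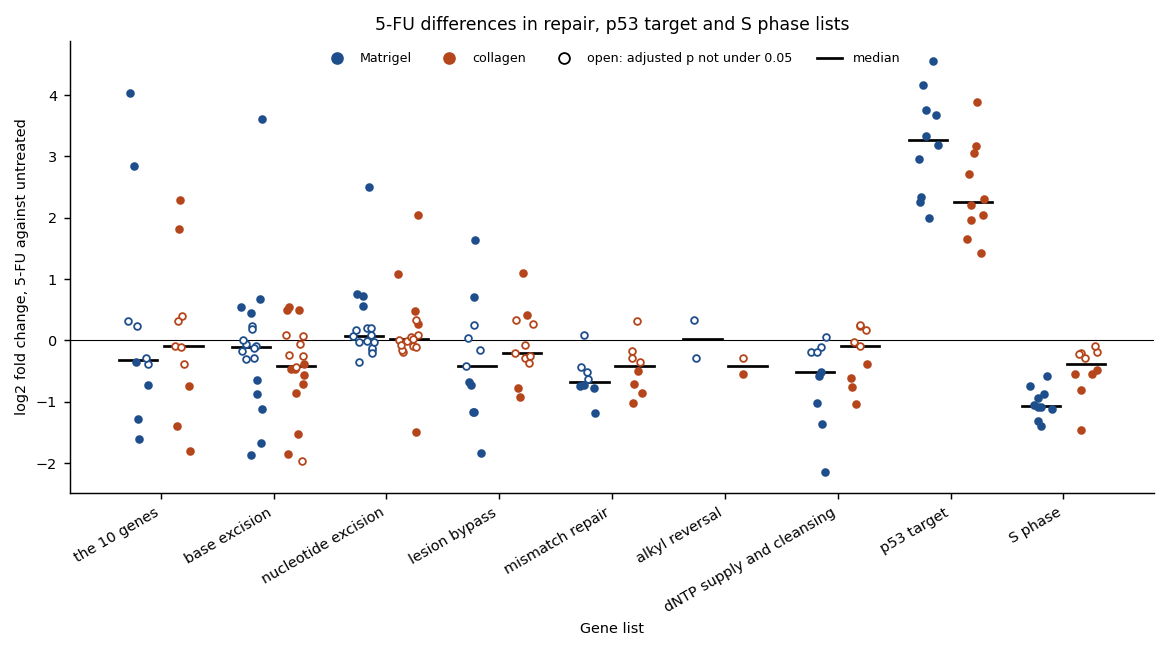
log2 fold change with 5-FU (vertical axis) of every gene in each pathway list, in Matrigel and in collagen; each point is 1 gene. All 10 p53 targets lie above 0 in both matrices, and the 10 repair genes spread from −1.61 to 4.04 in Matrigel and from −1.80 to 2.29 in collagen.

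Across the 18 libraries, Mgmt and Polk had similar profiles (Pearson r of log2 CPM = 0.94), and both ran opposite to Ung (r = −0.78 and −0.80) and Ddb2 (−0.81 and −0.72). These values describe 18 libraries that share 6 groups and carry no test. The search for similar genes covered only named genes above a minimum mean level, given below. Among these, the genes most like Mgmt were Ano3 (r = 0.983), Phlda3 (0.981) and Zmat3 (0.98). Those most like Polk were Rap2a (0.978), Csnk1g1 (0.976) and Exoc4 (0.973). Ung was closest to Mki67 (0.942), Ccna2 (0.942) and Cdca3 (0.941). Tdg was closest to Cbx2 (0.91), Mcm4 (0.909) and Mastl (0.892), and Mbd4 to Dnmt1 (0.896), Cenpi (0.878) and Mphosph9 (0.865).

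Ddb2 was nearest to Brd8 (0.906), Zfp639 (0.887) and Mcph1 (0.869), and Xpc to Shisa5 (0.936), Calcoco1 (0.934) and Chmp5 (0.929). Rrm2b was nearest to Spata6 (0.937), Rcan3 (0.923) and Fstl3 (0.914). For Polh (Itpr3 0.878, Ago1 0.876, Arsa 0.851) and Smug1 (Fubp3 0.825, Cnot6 0.824, Spcs3 0.821) the closest genes were less alike than for the other 8. Xpc and Rrm2b followed each other at r = 0.73, and Smug1 and Tdg at 0.74.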

How the data were processed

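Poly(A) RNA-seq libraries (SMART-Seq and Nextera XT, per the labels' protocols) of 18 cultures were analysed. The submitters' processing notes name bcl2fastq 2.20, DRAGEN and the build GRCm39 (mm39); their settings and the use of strand are not given in the sources used here. The authors deposited estimated counts per gene (67.8% of non-zero values whole within 1e-09) and TPM. Gene symbols matched 52081 of 55414 IDs, and 3333 stayed without one.

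Estimated counts were rounded and tested with edgeR 4.0.16 in R 4.3.3 (quasi-likelihood, TMM scaling, filterByExpr with minimum count 10 and total 15, Benjamini-Hochberg over all genes tested; calls at 0.05). The 5-FU and matrix comparisons used a fit of 12 libraries, the villus comparisons one of 9, and the medium comparison all 18, with group as the only term. Standard errors come from the log2 fold change divided by the root of F, and 95% intervals are normal. CPM used TMM over 18 libraries, and correlations used log2 CPM with prior count 2. Totals of 22.3 to 34.5 M counts limit precision for low genes. Replicates are described as biological but not tied to animals, so p-values measure the spread between these cultures. Same-group libraries differed beyond sampling noise (lowest chi-square per degree of freedom 11.3).

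The main p-values treat libraries as unpaired, and replicate numbers entered only as a block among the alternatives. Correlations of same-numbered deviations all exceeded 0.1 for 5-FU in collagen (0.43, 0.213 and 0.207) and for cWRNE against ENRW (0.206, 0.312 and 0.189). Alternatives were RLE factors, library totals, DESeq2 1.42.0, no filter, limma 3.58.1 on log2(TPM + 1) with at least 1 TPM in at least 3 libraries, a replicate block, one fit of all libraries, and leaving out libraries. The code was tested on simulated data. The members and lists were chosen with earlier results of these data known. Genes named are the 10 members, the 3 smallest adjusted p-values of each list per 5-FU comparison, and the 3 genes most correlated with each member. The correlated genes were sought among those with a mean of at least 10 CPM and a symbol other than a bare gene-model name. Overlapping genes, Alkbh2 and Rrm2 are named as context. Some genes that this rule names are not reported here.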

Additional observations from a re-analysis of the deposited data

Results flagged for a closer look

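In the main fit, the 5-FU differences of 2 of the 10 genes were called as differing between the matrices. Over all genes, 8.19% were called in this test (1.88% higher, 6.3% lower). The log2 difference in collagen minus that in Matrigel was −1.75 for Mgmt (edgeR adjusted p = 0.000514). It was −1.02 for Polk (edgeR adjusted p = 0.0356, and 0.0026 to 0.302 over the 19 alternatives), so the Polk call ended under some of these. Both genes were higher with 5-FU in 3 of 3 same-numbered library pairs in each matrix, which describes the rises and not their difference.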

How the results depend on the processing

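Of 980 values of the 10 genes under alternatives, 885 kept direction and side of the threshold, 43 lost a call, 14 gained one and 38 changed sign, every one of the 38 in an uncalled difference. For 5-FU in both matrices, Mgmt, Polk, Ung and Ddb2 kept their calls under every alternative run, as did Polh in collagen; the smallest Mgmt values came from log2(TPM + 1), 2.98 and 1.94, a scale that compresses low levels. Numbers of called genes moved for the matrix difference of 5-FU responses (1360; DESeq2 2231, all 18 libraries 521), VIL against COL_cWRNE (1276; DESeq2 2344, all 18 libraries 2480, leaving out single libraries 351 to 2050), VIL against MG_Control (7789; 4637 with VIL replicate 1 alone) and cWRNE against ENRW (3184; 1907 to 2669).

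Members called lower numbered 2 to 4 for 5-FU in Matrigel, 1 to 3 for the matrix difference and 1 to 4 for VIL against MG_Control when single libraries were left out. They numbered 1 for the matrix difference on TPM and with all libraries, 1 for each VIL comparison with VIL replicate 1 alone, and 2 for cWRNE under library totals (Ddb2 added, −0.69). Members higher with cWRNE were 2 with DESeq2 and without the filter (Polk added), and both counts for that comparison ran from 0 to 1 without single libraries. The replicate block made that count 2 (Polk, adjusted p = 0.04). It cut the members lower in VIL against MG_Control from 4 to 2 (Ung 0.0607, Tdg 0.0581), brought Polh to an adjusted p of 0.05 in the matrix difference, and changed no other member's call. In the other comparisons not every same-numbered correlation exceeded 0.1 (0.558, 0.097 and 0.452 for 5-FU in Matrigel), although replicate 2 carried Y-linked counts in every group.

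Sign changes of uncalled values were as follows. On TPM, Xpc was −0.02 for 5-FU in Matrigel and Rrm2b −0.03 for VIL against COL_cWRNE. For COL_Control against MG_Control, Smug1 and Tdg were 0.07 and 0.07 under library totals, 0.01 and 0.01 without the filter, 0.25 and 0.22 on TPM, and 0 with all libraries. With VIL replicate 1 alone against COL_cWRNE, Xpc was −0.02, Polk −0.09 and Rrm2b −0.02. Leaving out single libraries, Rrm2b ran from −0.02 to 0.76 for 5-FU in Matrigel and Smug1 from −0.26 to 0.03 in collagen. For the matrix difference the ranges were −0.04 to 0.48 (Ung), −0.01 to 0.40 (Smug1), −0.16 to 0.13 (Xpc) and −0.36 to 0.42 (Rrm2b). They were −0.12 to 0.17 (Smug1) and −0.07 to 0.06 (Tdg) for COL_Control against MG_Control, and −0.23 to 0.02 (Smug1), −0.09 to 0.47 (Polk) and 0 to 0.49 (Rrm2b) for VIL against COL_cWRNE. For cWRNE against ENRW they were −0.21 to 0.04 (Smug1) and −0.46 to 0.06 (Polh).

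Under library totals the share of called genes that were higher went from 62.2% to 44.6% for 5-FU in Matrigel, 52.8% to 41.7% in collagen, 23% to 33% for the matrix difference (33.7% with RLE) and 73% to 45.2% for cWRNE. The median of all genes moved from 0.06 to −0.09, −0.03 to −0.13, −0.07 to −0.03 and 0 to −0.16. On log2(TPM + 1) the shares were 28.2% (median −0.22), 40.2% (−0.13), 57.8% (0.13) and 51.4%, with 72.8% in place of 50.7% for COL_Control against MG_Control (median 0.23 against 0.04) and 54% in place of 74.4% for VIL against COL_cWRNE. Counts of 16 to 357 for Ung and 45 to 273 for Rrm2b limit what could be seen in these genes.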
